A study of Homo sapiens with 8 samples.

Results

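The ERK pathway feedback genes were 10 genes whose products damp or carry the output of the ERK kinases: the dual-specificity phosphatases DUSP4 and DUSP6, the Sprouty genes SPRY1 and SPRY2, the Spred genes SPRED1 and SPRED2, the ETS factors ETV4 and ETV5, and PHLDA1 and IER3. They were chosen by name, with earlier results of these data known. All 10 were found among the 36474 genes of the count table. RNA sequencing was performed on LNCaP, an established line from a metastasis of a human prostate carcinoma. All cells were first starved in medium that held neither serum nor calcium. The 0 h group had 2 libraries taken at time zero, and the 12 h and 24 h groups had 3 libraries each, taken after 12 and 24 hours with 100 ng/mL of recombinant human ASPN (asporin), a small leucine-rich proteoglycan secreted by fibroblasts. The labels number the time-zero samples 1 and 2 while the count table numbers its time-zero columns 1 and 3, so the column numbered 3 matches no label and is called the unnumbered 0 h library. No library without ASPN at 12 or 24 h was analyzed here, so ASPN and time in the starvation medium cannot be told apart. The comparisons with 0 h also share the same 2 libraries.

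ERK signaling runs from growth factor receptors such as HER2 and HER3 through RAS, RAF and MEK to ERK, which enters the nucleus and switches on immediate early genes and ETS factors. Among the genes it induces are its own brakes: DUSP phosphatases remove the phosphates that activate ERK, Sprouty proteins act between receptor and RAS or RAF, and Spred proteins bring the RAS inhibitor neurofibromin to the membrane. In many cells the repressor Capicua (CIC) holds ETV1, ETV4, ETV5, DUSP4, DUSP6 and Sprouty or Spred genes down until ERK signaling removes it. For this reason the RNA levels of these genes are widely read as a measure of sustained ERK output, and the comparison of times asks whether they moved in cells given ASPN.

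Of the 9 feedback genes that could be tested, 0 passed an adjusted p of 0.05 at 12 h against 0 h, 1 passed at 24 h against 0 h and 0 passed at 24 h against 12 h (edgeR quasi-likelihood test, Benjamini-Hochberg over 21071 genes). The gene that passed was PHLDA1, which rose 1.82-fold at 24 h. Over all tested genes, 11.6% passed at 12 h, 16.3% at 24 h and 2.72% between 12 and 24 h. At an unadjusted p under 0.05 the number of feedback genes was 2 at 12 h (SPRY1 and PHLDA1), 2 at 24 h (ETV5 and PHLDA1) and 1 between 12 and 24 h (DUSP4), and DESeq2 called 0, 1 and 0. PHLDA1 was also the only feedback gene that passed both the adjusted p and a change of at least 1.5-fold, which 1.05%, 2.45% and 0.18% of all tested genes passed in the same order of comparisons. When the 3 times were tested together, 1 of the 9 passed, again PHLDA1 with an adjusted p of 0.0186 by edgeR, against 16.4% of all tested genes. IER3 had too few counts to be tested.

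The depth was 73406825 to 96962135 counts per library, so that 3 counts, used here as the limit that a count of 0 allows, correspond to 0.031 to 0.0413 CPM, the unit of counts scaled to library size used here for levels. Mitochondrial genes took 6.2% to 7.32% of the counts. The 8 luminal prostate markers, among them KLK3, were high in every library, with a summed level of 4806 to 4852 CPM at 0 h, 5162 to 5261 CPM at 12 h and 5373 to 5541 CPM at 24 h. The 3 leukocyte markers summed to at most 0.0908 CPM and the 2 basal markers measured to at most 0.229 CPM. Of the fibroblast markers, COL1A1 was at 18.9 to 21.3 CPM and LUM at 0.945 to 1.83 CPM while DCN reached at most 5 counts (COL1A2 was not analyzed here). Of the endothelial markers, PECAM1 and CDH5 reached at most 2 and 5 counts, while VWF stood at 14.8 and 17.3 CPM at 0 h and at 11.2 to 13.2 CPM at 24 h, and it fell by 0.38 on the log2 scale between these times (adjusted p = 0.0018, edgeR). The part of these levels in the results below was not tested. In bulk RNA, a change in the number of cells with a transcript and a change in its amount per cell cannot be told apart.

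DUSP4 and DUSP6 encode phosphatases that remove phosphate from ERK, DUSP4 in the nucleus and DUSP6 in the cytoplasm. DUSP4 (ENSG00000120875, chromosome 8, 29333064 to 29350684, minus strand of GRCh38) had the highest mean level per length of the 10 genes, in a range that overlapped that of SPRY1. Its level was 46.5 and 46.8 normalized CPM in the numbered and unnumbered 0 h libraries, 48.0, 46.4 and 50.6 CPM in replicates 1 to 3 at 12 h, and 44.1, 43.2 and 46.7 CPM in replicates 1 to 3 at 24 h. The 3 groups overlapped. The log2 change was 0.05 ± 0.06 (SE) at 12 h with an adjusted p of 0.658 and -0.06 ± 0.06 at 24 h with an adjusted p of 0.514. The 95% intervals ran from 0.957-fold to 1.12-fold and from 0.884-fold to 1.03-fold, so a change of 1.5-fold lay outside them. Between 12 and 24 h the change was -0.11 ± 0.05, which did not pass after adjustment (adjusted p = 0.287, edgeR).

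DUSP6 (ENSG00000139318, chromosome 12, 89347235 to 89352501, minus strand) was close to silent, with 14 to 31 counts per library and 192 in all. It stood at 0.273 and 0.344 CPM at 0 h, at 0.337, 0.213 and 0.355 CPM at 12 h, and at 0.242, 0.145 and 0.422 CPM at 24 h. The lowest and the highest value of the series both fell in the 24 h group. The log2 change was -0.03 ± 0.49 at 12 h and -0.21 ± 0.49 at 24 h, with adjusted p of 0.982 and 0.844. At this depth the 95% intervals, from 0.492-fold to 1.95-fold and from 0.432-fold to 1.73-fold, held changes of 1.5-fold in either direction. An antisense long noncoding RNA (ENSG00000274021) with 72 counts in all covers 28.6% of the exon bases of DUSP6. The strand setting of the counting is not given in the sources used here, so the gene of origin of reads from the shared bases cannot be told.

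The stretch of 250 bases before the start of transcription is shown for DUSP6, the textbook target with little signal here, for SPRED1, a member with more than 1 match to an ETS hexamer in its window, and for PHLDA1, the member that rose. The sequences are from RefSeq (GRCh38.p14, printed 5′ to 3′ on the strand of the gene), and capitals mark CIC octamers (TGAATGAA, TGAATGGA, TCAATGAA or TCAATGGA) and the ETS hexamer AGGAAG, on either strand. The windows are chr12:89352502-89352751 for DUSP6, chr15:38252586-38252835 for SPRED1 and chr12:76031777-76032026 for PHLDA1, each ending at the base before the annotated gene.
DUSP6: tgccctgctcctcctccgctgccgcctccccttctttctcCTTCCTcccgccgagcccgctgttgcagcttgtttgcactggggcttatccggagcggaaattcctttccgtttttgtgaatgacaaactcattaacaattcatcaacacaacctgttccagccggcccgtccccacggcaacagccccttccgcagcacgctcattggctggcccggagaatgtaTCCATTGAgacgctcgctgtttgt
SPRED1: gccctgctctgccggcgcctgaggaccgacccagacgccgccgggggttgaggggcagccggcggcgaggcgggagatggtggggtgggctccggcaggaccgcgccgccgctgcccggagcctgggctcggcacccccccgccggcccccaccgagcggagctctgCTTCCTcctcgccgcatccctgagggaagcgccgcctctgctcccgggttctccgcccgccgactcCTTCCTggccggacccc
PHLDA1: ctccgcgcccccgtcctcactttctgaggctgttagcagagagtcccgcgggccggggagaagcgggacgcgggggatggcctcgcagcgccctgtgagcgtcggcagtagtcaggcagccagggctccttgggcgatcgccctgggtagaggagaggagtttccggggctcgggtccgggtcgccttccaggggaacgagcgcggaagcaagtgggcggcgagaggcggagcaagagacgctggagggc

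The DUSP6 window held a CIC octamer 24 bases before the start, read as TCCATTGA on the strand of the gene, and an ETS hexamer 210 bases before it. The SPRED1 window held the ETS hexamer at 83 and 17 bases before the start. The PHLDA1 window held none of the motifs searched. The set of RefSeq promoters used here held 10 start sites for 6 of the 10 genes, DUSP6, PHLDA1, SPRED1, SPRED2, SPRY1 and SPRY2. A CIC octamer was found in 1 of these 10 windows and in 3.18% of the 35116 promoter windows of the same length. The ETS hexamer was found in 8 of the 10 and in 28.7% of all windows, with several windows belonging to the same gene. The AP-1 heptamer TGANTCA (6.57% of all windows), the cAMP response octamer TGACGTCA (1.65%) and the serum response element core known as the CArG box (1.16%) were found in 0 of the 10. A match is a run of letters and not a measured binding site.

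SPRY1 and SPRY2 encode Sprouty proteins, which restrain receptor tyrosine kinase signaling upstream of ERK. SPRY1 (ENSG00000164056, chromosome 4, 123396795 to 123403760, plus strand) stood at 22.8 and 21.8 CPM at 0 h, at 25.9, 26.01 and 23.6 CPM at 12 h, and at 23.9, 24.2 and 23.7 CPM at 24 h. All 6 libraries with ASPN lay above both 0 h libraries, and the 12 and 24 h groups overlapped. The log2 change of SPRY1 was 0.17 ± 0.07 at 12 h (adjusted p = 0.0856) and 0.10 ± 0.07 at 24 h (adjusted p = 0.344, edgeR). The gain at 12 h was 1.13-fold with a 95% interval of 1.03-fold to 1.24-fold. It passed the adjusted p when genes with a mean under 100 normalized counts were left out (adjusted p = 0.0479) and in none of the other alternatives, where the adjusted p was up to 0.238.

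SPRY2 (ENSG00000136158, chromosome 13, 80335976 to 80341126, minus strand) was much lower, at 82 to 152 counts per library. Its level was 0.931 and 1.57 CPM at 0 h, 1.48, 1.71 and 1.35 CPM at 12 h, and 1.53, 1.15 and 1.39 CPM at 24 h. The lowest value of the series was that of the numbered 0 h library, and the unnumbered one stood among the libraries with ASPN. The log2 change was 0.29 ± 0.23 at 12 h and 0.13 ± 0.24 at 24 h, with adjusted p of 0.515 and 0.800. Without the numbered 0 h library both turned negative, at -0.05 and -0.22.

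SPRED1 and SPRED2 encode membrane proteins that bind neurofibromin and so hold RAS in its inactive form. SPRED1 (ENSG00000166068, chromosome 15, 38252836 to 38357249, plus strand) stood at 9.09 and 6.95 CPM at 0 h, at 8.17, 9.12 and 8.43 CPM at 12 h, and at 9.09, 7.22 and 8.63 CPM at 24 h. The 0 h libraries again spanned nearly the whole range of the series. SPRED2 (ENSG00000198369, chromosome 2, 65310851 to 65432637, minus strand) stood at 18.7 and 16.8 CPM at 0 h, at 18.8, 18.1 and 19.2 CPM at 12 h, and at 18.9, 18.1 and 17.6 CPM at 24 h. For SPRED1 the log2 change was 0.09 ± 0.11 at 12 h and 0.05 ± 0.11 at 24 h, with adjusted p of 0.688 and 0.855. For SPRED2 it was 0.07 ± 0.07 and 0.04 ± 0.07, with adjusted p of 0.615 and 0.810. The 95% intervals at 24 h, 0.882-fold to 1.21-fold for SPRED1 and 0.927-fold to 1.14-fold for SPRED2, did not reach 1.5-fold in either direction, nor did those at 12 h.

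ETV4 and ETV5 encode ETS factors of the PEA3 group, which carry the ERK signal to target genes and are themselves induced by it. ETV5 (ENSG00000244405, chromosome 3, 186046314 to 186110318, minus strand) stood at 0.806 and 1.20 CPM at 0 h, at 0.843, 0.909 and 0.596 CPM at 12 h, and at 0.758, 0.641 and 0.558 CPM at 24 h. All 3 libraries at 24 h lay below both at 0 h, while the 12 h group overlapped with each of the others. The log2 change of ETV5 at 24 h was -0.60 ± 0.28, a level of 0.657-fold with a 95% interval of 0.44-fold to 0.982-fold, and it did not pass after adjustment (adjusted p = 0.159, edgeR). Without the unnumbered 0 h library, which had the highest value, the log2 change was -0.29 (adjusted p = 0.676). At 12 h the change was -0.35 ± 0.28 (adjusted p = 0.505).

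ETV4 (ENSG00000175832, chromosome 17, 43527844 to 43579620, minus strand) had 111 counts over the 8 libraries. It was found with 4 and 18 counts at 0 h, with 17, 12 and 12 counts at 12 h, and with 26, 20 and 2 counts at 24 h. The libraries with the fewest counts were the numbered 0 h library and replicate 3 at 24 h. The log2 change was 0.19 ± 0.77 at 12 h and 0.30 ± 0.76 at 24 h (adjusted p of 0.922 and 0.859), and its 95% interval at 24 h ran from 0.42-fold to 3.61-fold and so held changes of more than 1.5-fold in either direction. Of its exon bases, 1.93% lie opposite DHX8, a gene with 40716 counts.

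PHLDA1 encodes a protein with a pleckstrin homology-like domain and is known as an early target of ERK and other growth signals. PHLDA1 (ENSG00000139289, chromosome 12, 76025447 to 76031776, minus strand) stood at 1.31 and 1.25 CPM at 0 h, at 1.504, 2.43 and 1.42 CPM at 12 h, and at 2.34, 1.87 and 2.79 CPM at 24 h. These are 115 and 91 counts at 0 h, 116, 217 and 124 at 12 h, and 213, 181 and 205 at 24 h. All 6 libraries with ASPN lay above both at 0 h, and replicate 2 at 12 h lay within the range of the 24 h group.

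PHLDA1 rose by 0.86 ± 0.22 on the log2 scale at 24 h against 0 h, with an adjusted p of 0.0065 and a 95% interval of 1.32-fold to 2.49-fold. The group means with their SD were 1.28 ± 0.04 CPM at 0 h (n = 2), 1.79 ± 0.56 CPM at 12 h (n = 3) and 2.33 ± 0.46 CPM at 24 h (n = 3). The log2 change at 12 h was 0.48 ± 0.23 (adjusted p = 0.184), and that between 12 and 24 h was 0.38 ± 0.19 (adjusted p = 0.388, edgeR). The rise at 24 h passed in 11 of 14 alternatives, among them DESeq2 (adjusted p = 0.00753). It did not pass without the numbered 0 h library (log2 change 0.89, adjusted p = 0.0745), without the unnumbered 0 h library (0.84, adjusted p = 0.0513) or without replicate 3 at 24 h (0.72, adjusted p = 0.0514). In the joint test of the 3 times, 0 feedback genes passed without either 0 h library or without replicate 1 or 3 at 24 h. An antisense RNA, PHLDA1-AS1, covers 9.35% of the exon bases of PHLDA1 and was not analyzed here.

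IER3, an early response gene whose product is phosphorylated by ERK, had 25 counts over the 8 libraries (ENSG00000137331, chromosome 6, 30743199 to 30744548, minus strand). The counts were 1 and 0 at 0 h, 5, 3 and 2 at 12 h, and 0, 14 and 0 at 24 h. Replicate 2 at 24 h held more counts than the other libraries together, and its neighbors in the group held 0. Only that library and replicate 1 at 12 h exceeded 3 counts, and no fold change is given. IER3-AS1, which covers 32.6% of the exon bases of IER3 on the other strand, had 667 counts.

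**Figure D1:**
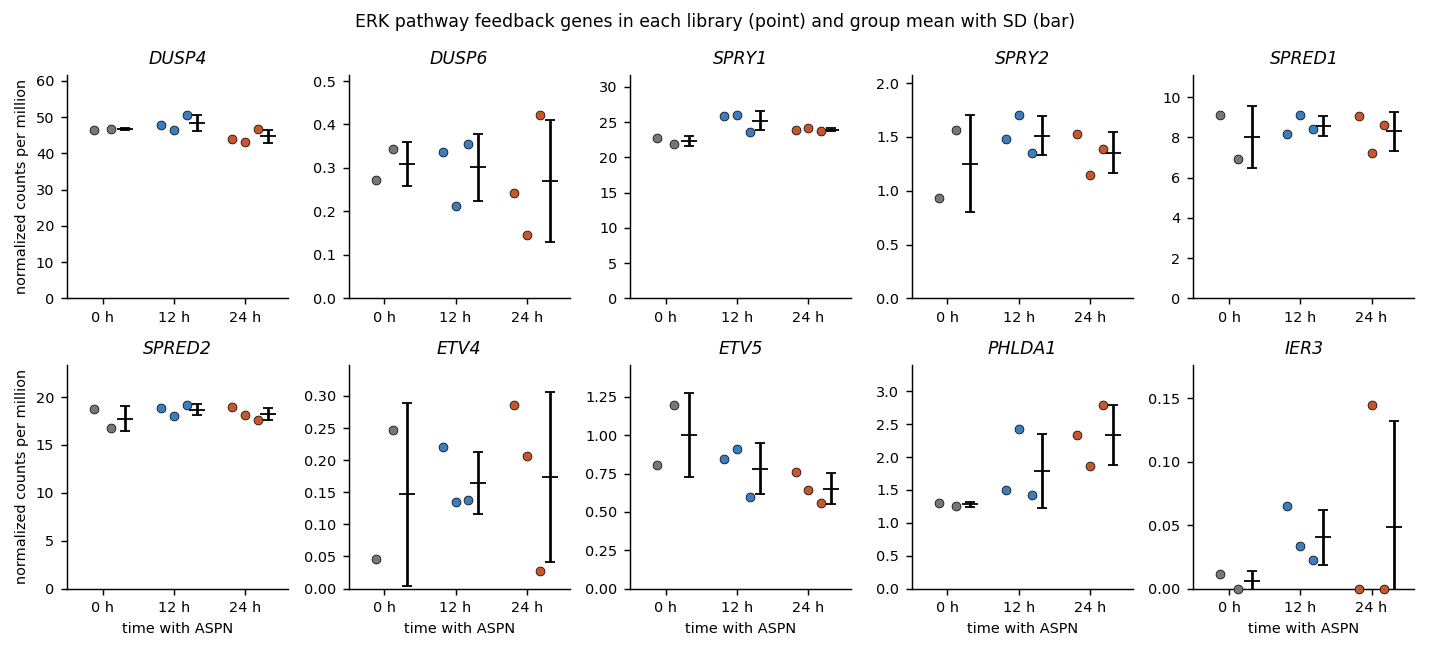
Normalized CPM (vertical axes, from 0) of the 10 feedback genes by time with ASPN, with 1 point per library (2 at 0 h, 3 at 12 h, 3 at 24 h) and bars for the group mean with SD. PHLDA1 lies above both 0 h libraries in all 6 libraries with ASPN, ETV5 at 24 h lies below them, and the DUSP4 and SPRED2 points stay within a narrow band.

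**Figure D2:**
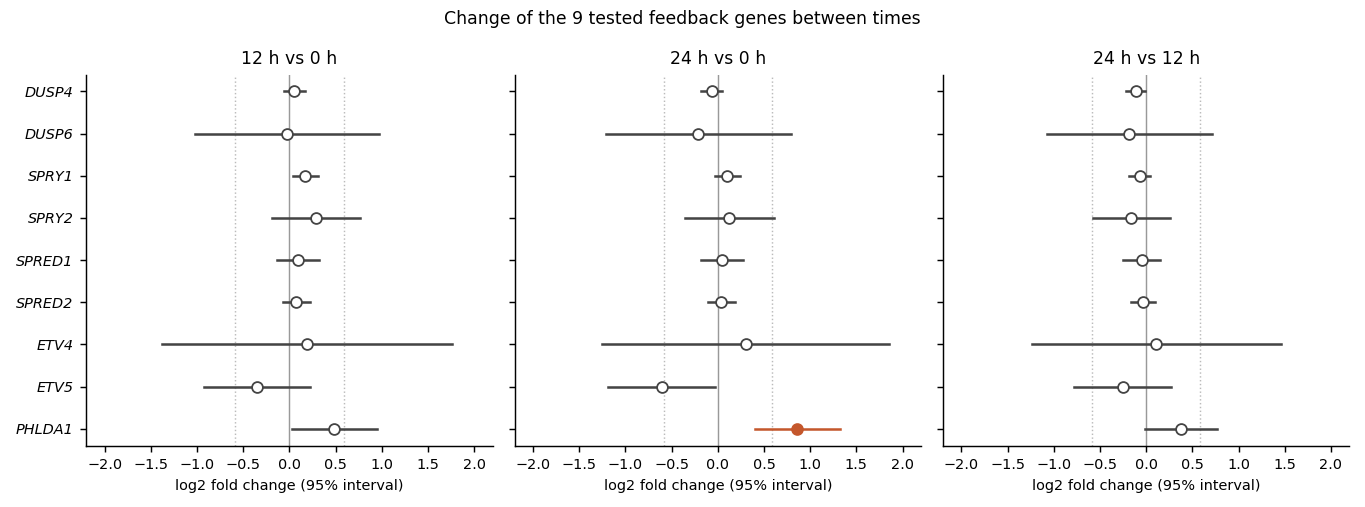
Log2 fold change of the 9 tested feedback genes in the 3 comparisons, with 95% intervals as lines and dotted lines at 1.5-fold. The filled point, PHLDA1 at 24 h against 0 h, is the only change with an adjusted p of at most 0.05, and the widest intervals belong to DUSP6 and ETV4, which had 192 and 111 counts in all.

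By the ranges of the libraries, 2 of the 9 tested genes (SPRY1 and PHLDA1) lay above all 0 h libraries at 12 h, and at 24 h these 2 lay above and ETV5 below. Among all tested genes, 36.9% did not overlap between 12 and 0 h, 43.2% between 24 and 0 h and 19.6% between 24 and 12 h. The shares among the feedback genes were thus not above those of all genes, and between 24 and 12 h the groups overlapped in all 9. The median log2 change of the 9 was 0.09 at 12 h, 0.05 at 24 h and -0.07 between 12 and 24 h, beside medians of -0.0007, -0.0031 and 0.0035 over all tested genes. The estimate lay above 0 for 7 of the 9 at 12 h, for 6 at 24 h and for 2 between 12 and 24 h, and for 49.9%, 49.4% and 51.0% of all tested genes in the same order.

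Per kilobase of exon, the order of the mean levels over the 8 libraries was DUSP4 (6.40 CPM per kb), SPRY1 (6.05), SPRED2 (3.32), SPRED1 (1.08), SPRY2 (0.432), PHLDA1 (0.315), ETV5 (0.137), DUSP6 (0.0755), ETV4 (0.0464) and IER3 (0.0257). The ranges over the libraries overlapped between DUSP4 and SPRY1, between SPRY2 and PHLDA1 and between each neighboring pair from ETV5 down, so those neighbors were not separated beyond their spread. The ranges did not meet between SPRY1 and SPRED2, between SPRED2 and SPRED1, between SPRED1 and SPRY2 or between PHLDA1 and ETV5. The genes of a family thus differed widely in level: DUSP4 stood far above DUSP6, and SPRY1 above SPRY2. The relatives ETV1 (31.4 CPM per kb), PHLDA2 (14.6) and PHLDA3 (18.5) stood far above ETV4, ETV5 and PHLDA1. LNCaP is known for a rearrangement that raises ETV1. SPRY4, another Sprouty gene, had 18 counts in all and was not tested.

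**Figure D3:**
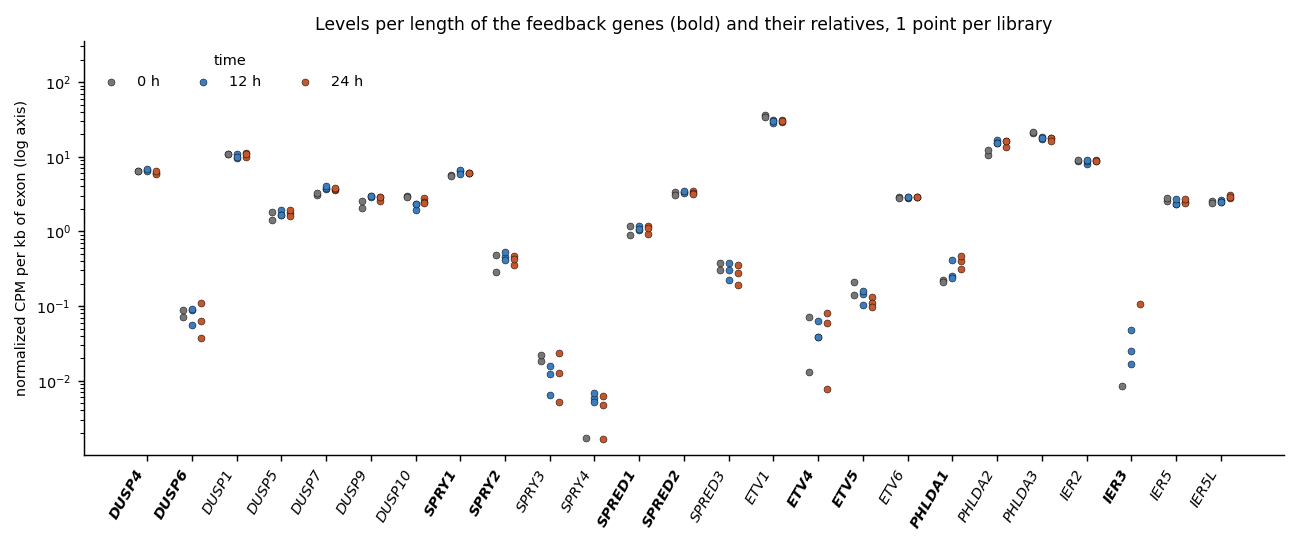
Normalized CPM per kilobase of exon on a log axis for the 10 feedback genes (bold names) and relatives of the same families, with 1 point per library colored by time. DUSP4 and SPRY1 lie near 6 CPM per kb and IER3 and ETV4 below 0.2, and libraries with 0 counts, such as 3 of the 8 for IER3, cannot be drawn on a log axis.

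By likeness over the 8 libraries, the genes whose centered log2 CPM values came closest to those of PHLDA1 among 12638 candidates were IL36RN, FAM189A1 and DDIT4L, with root mean square differences of 0.187, 0.189 and 0.193. PHLDA1 itself varied by 0.42 about its mean on this scale. All 3 were low, at 1.96, 2.76 and 1.76 CPM on average. The log2 change at 24 h against 0 h was 0.64 for IL36RN, 0.92 for FAM189A1 and 0.65 for DDIT4L. The candidates share the same 8 libraries, and the likeness is a description only.

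The surrounding pathway was covered by 67 other genes in 7 lists, of which 65 could be tested. At 12 h against 0 h, 6 of the 65 rose and 9 fell; at 24 h, 6 rose and 13 fell; and between 12 and 24 h, 1 rose and 1 fell. None of these changes reached 1.5-fold. The shares past the adjusted p are to be read beside the 11.6%, 16.3% and 2.72% of all tested genes given above. By direction at that threshold, 4.85% of all tested genes rose and 6.75% fell at 12 h against 0 h. At 24 h against 0 h, 7.82% rose and 8.49% fell. Between 12 and 24 h, 1.12% rose and 1.61% fell. The median log2 change of the 65 was -0.02 at 12 h and 0.01 at 24 h. These counts rest in part on the numbered 0 h library: without it, 4 genes passed at 12 h and 10 at 24 h.

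Of 9 other DUSP genes, 2 rose and 1 fell at 12 h, and 1 rose and 1 fell at 24 h. DUSP7, a cytoplasmic ERK phosphatase of the DUSP6 kind, rose by 0.26 ± 0.07 on the log2 scale at 12 h and by 0.20 ± 0.07 at 24 h (adjusted p of 0.0119 and 0.0435). DUSP9, of the same kind, rose by 0.35 ± 0.11 at 12 h (adjusted p = 0.0277). DUSP10 and DUSP16, which act mainly on the stress kinases p38 and JNK, fell, DUSP10 by 0.42 ± 0.11 at 12 h (adjusted p = 0.0075) and DUSP16 by 0.23 ± 0.05 at 24 h (adjusted p = 0.0004). Without the numbered 0 h library, the calls of DUSP7, DUSP9 and DUSP10 were lost, as were those of DUSP7 and DUSP9 at 12 h without replicate 3 at 12 h and that of DUSP7 at 24 h whichever 24 h library was left out, with adjusted p up to 0.348, 0.556 and 0.153 for the 3 genes. DUSP1 and DUSP5, commonly induced by growth factors, had log2 changes of -0.04 and 0.11 at 24 h that did not pass.

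Of 8 other Sprouty, Spred and receptor-level inhibitors, 7 were tested, 1 fell at 12 h, and 1 rose and 1 fell at 24 h. ERRFI1, an inhibitor of ErbB receptor kinases, fell by 0.24 ± 0.06 at 12 h and by 0.18 ± 0.06 at 24 h (adjusted p of 0.0056 and 0.0301). IL17RD, also called SEF, which holds MEK and ERK in the cytoplasm, rose by 0.25 ± 0.08 at 24 h (adjusted p = 0.0247). ERRFI1 did not pass at either time without the numbered 0 h library, nor at 24 h whichever 24 h library was left out (adjusted p up to 0.425). IL17RD did not pass without either 0 h library or without replicate 1 or 3 at 24 h (adjusted p up to 0.117).

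Of 9 other ETS factors and repressors of ERK output, 1 rose and 1 fell at each time against 0 h. ERF, an ETS repressor that ERK sends out of the nucleus, stood at 25.7 to 26.8 CPM at 0 h and at 30.6 to 33.8 CPM in the 6 libraries with ASPN, and it rose by 0.30 ± 0.06 at 12 h and by 0.36 ± 0.06 at 24 h (adjusted p of 0.0009 and 0.0001). ETV1, the third PEA3 factor, fell by 0.22 ± 0.05 at 12 h and by 0.21 ± 0.05 at 24 h (adjusted p of 0.0020 and 0.0019). Without the numbered 0 h library the adjusted p of ETV1 reached 0.122 and 0.0871. CIC had log2 changes of 0.11 and -0.04, which did not pass.

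Of 5 relatives of PHLDA1 and IER3, 1 rose and 1 fell at each time against 0 h. PHLDA2 rose by 0.45 ± 0.09 at 12 h and by 0.41 ± 0.09 at 24 h (adjusted p of 0.0008 and 0.0011), from 9.83 and 11.5 CPM at 0 h to 12.6 to 15.4 CPM in the 6 libraries with ASPN. Its adjusted p without the numbered 0 h library was 0.101 at 12 h and 0.107 at 24 h. PHLDA3, a p53 target that opposes AKT, fell by 0.26 ± 0.05 at 12 h and by 0.31 ± 0.05 at 24 h (adjusted p of 0.0011 and 4.7e-05). IER2, IER5 and IER5L did not pass at any time.

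Of 10 other ERK-induced genes, 9 were tested, 2 rose at 12 h, and 2 rose and 1 fell at 24 h. CCND1, the cyclin of early G1, stood at 286 and 287 CPM at 0 h, at 314 to 329 CPM at 12 h and at 349 to 352 CPM at 24 h, with no overlap among the groups. It rose by 0.16 ± 0.04 at 12 h, by 0.29 ± 0.04 at 24 h and by 0.14 ± 0.04 between 12 and 24 h (adjusted p of 0.012, 4.4e-06 and 0.0383). MYC rose by 0.16 ± 0.04 at 12 h and by 0.15 ± 0.04 at 24 h (adjusted p of 0.0093 and 0.0118). LIF, a cytokine of the interleukin 6 family, fell by 0.42 ± 0.10 at 24 h (adjusted p = 0.0022). EGR1 and FOS, immediate early genes that ERK induces within minutes, had log2 changes of 0.03 and -0.14 at 12 h and of 0.30 and -0.34 at 24 h, which did not pass. Without the numbered 0 h library, CCND1 at 12 h (adjusted p = 0.0855) and MYC at both times (up to 0.0663) no longer passed, and MYC at 24 h also failed without replicate 3 at 24 h. Neither CCND1 nor MYC passed at 12 h when the model was fitted without the 24 h libraries. The change of CCND1 between 12 and 24 h was lost whichever 24 h library was left out and without replicate 1 or 3 at 12 h. It was also lost with no filter on low counts (adjusted p up to 0.204 over these fits). On the other strand, LTO1 shares 10.4% of the exon bases of CCND1. Other genes that passed share exon bases too, among them PHLDA3 (18.4% with a long noncoding RNA) and SHC1 (7.72% with PYGO2) on the same strand. BRAF shares 5.29% with NDUFB2 on the other strand. The part of these overlaps in the changes was not tested.

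Of the 20 genes of the ERK cascade itself, 0 rose past the adjusted p, while 5 fell past it at 12 h and 7 at 24 h. The 5 at 12 h were SOS1 and SOS2, the exchange factors that load RAS, BRAF, SHOC2, a scaffold of RAF activation, and the ERK-activated kinase gene RPS6KA2. At 24 h these 5 fell too, with SHC1 and RPS6KA3. Over all tested genes, 6.75% fell past the adjusted p at 12 h and 8.49% at 24 h. The list did not move as a whole: the estimate lay above 0 for 8 of the 20 at 12 h and for 9 at 24 h. Its median log2 change was -0.07 at 12 h and -0.04 at 24 h. At 24 h BRAF fell by 0.34 ± 0.06, SOS2 by 0.31 ± 0.06, SHOC2 by 0.29 ± 0.05 and RPS6KA2 by 0.34 ± 0.05 (adjusted p of 4.1e-05, 0.0005, 0.0002 and 2.7e-06). RPS6KA3 stood at 89.2 and 93.3 CPM at 0 h and at 73.2 to 75.8 CPM at 24 h, and it fell by 0.30 ± 0.05 at 24 h and by 0.19 ± 0.04 between 12 and 24 h (adjusted p of 2.7e-05 and 0.0103). MAPK3, an ERK gene, had a log2 change of 0.14 at 24 h that did not pass (adjusted p = 0.0983). Without the numbered 0 h library, SOS1, SOS2 and BRAF no longer passed at 12 h (adjusted p of 0.155, 0.288 and 0.143), nor SOS1 and SOS2 at 24 h (0.195 and 0.0614). SOS1 at 24 h was also lost whichever 24 h library was left out and with no filter on low counts, and RPS6KA3 between 12 and 24 h without replicate 1 or 3 at 24 h (adjusted p up to 0.085). Of the 6 RAS brakes, 0 passed at 12 h and RASAL2 fell by 0.20 ± 0.06 at 24 h (adjusted p = 0.0306), which was lost whichever library of the 0 h or 24 h group was left out and with no filter on low counts (adjusted p up to 0.127). NF1, the neurofibromin to which Spred proteins bind, had a log2 change of -0.13 at 24 h (adjusted p = 0.137). LZTR1 went the other way, with log2 changes of 0.25 at both times that did not pass (adjusted p of 0.0808 and 0.0672, edgeR). The estimate lay above 0 for 3 of the 6 RAS brakes at each time.

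**Figure D4:**
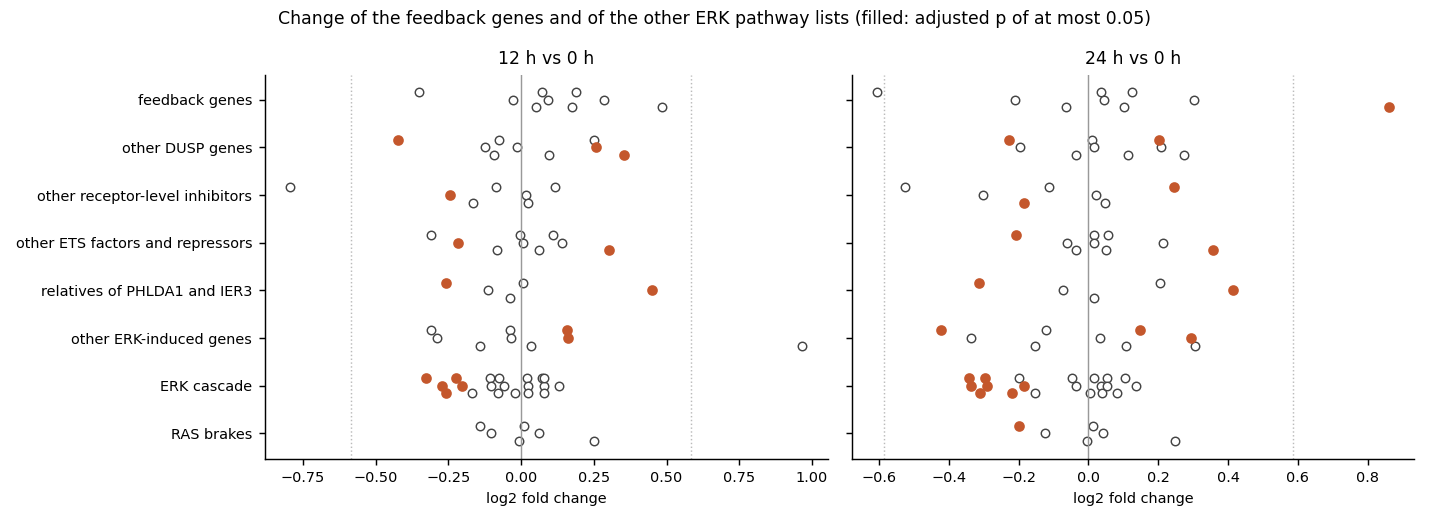
Log2 fold change of each tested gene (1 point per gene, shifted vertically for legibility) in the feedback genes and the 7 other lists, at 12 h (left) and 24 h (right) against 0 h, with dotted lines at 1.5-fold. Filled points have an adjusted p of at most 0.05; in the ERK cascade all of these lie below 0, and PHLDA1 at 24 h is the only filled point beyond 1.5-fold.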

How the data were processed

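Per the labels and the study's methods, the authors made TruSeq mRNA libraries, trimmed the reads with Cutadapt, aligned them with STAR 2.7.11a to GRCh38 and counted reads per gene with featureCounts. The deposited values are raw counts of 36474 genes, with 0 columns left unused. The study left out a further time-zero replicate for quality. The labels call the replicates biological and describe triplicate wells, so the p-values measure the spread between these samples, which may be technical in part. Replicate pairs differed beyond sampling noise, with a chi-square per degree of freedom of 5.32 to 15.2.

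Counts were fitted in edgeR 4.0.16 (R 4.3.3) with TMM scaling, filterByExpr (21071 genes kept), 1 term per time, all 8 libraries and robust quasi-likelihood tests, with Benjamini-Hochberg adjustment over all tested genes. The fit was checked on simulated counts. The limit from 0 counts covers counting error only, because PCR copies of a molecule were not marked. Exon lengths and overlaps came from GENCODE on GRCh38. The 10 members, the lists and the rule for named genes were chosen with earlier results of these data known. By that rule the text names all members, genes of the other lists past an adjusted p of 0.05, the gene of smallest p in a list, and the 3 well-counted genes (at least 100 normalized counts on average) most like a member that passed. Genes named without passing were chosen after their values were seen. Alternatives were RLE and upper-quartile scaling, no low-count filter, a minimum mean of 100 normalized counts, DESeq2 1.42.0, a fit to the compared times alone, a replicate block and leaving out each library.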

Additional observations from a re-analysis of the deposited data

How the results depend on the processing

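RLE and upper-quartile scaling, no low-count filter, DESeq2 and a fit to the compared times alone kept each feedback gene on its side of the threshold, where they gave it an adjusted p (DESeq2 gave none for DUSP6 and ETV4, nor for ETV5 between 12 and 24 h). With a minimum mean of 100 normalized counts, 1 member (SPRY1) passed at 12 h. When 1 library was left out at a time (a lone 0 h library being assumed to vary like the other groups), the number of members past the adjusted p, and of those past 1.5-fold as well, ranged from 0 to 1 at 24 h against 0 h, and the number past it over the 3 times together also from 0 to 1. For the other pathway genes this range was 4 to 19 at 12 h, 10 to 22 at 24 h and 0 to 4 between 12 and 24 h. Between 12 and 24 h, 1 of them passed with no low-count filter, 4 with the minimum mean of 100 and 4 with DESeq2; the cause was not tested. The median log2 change of the members ranged from 0.0452 to 0.154 at 12 h and from -0.0733 to 0.0992 at 24 h over the same 9 genes when 1 library was left out, against a spread between libraries of 0.0582.

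The direction turned when 1 library was left out for DUSP6 (log2 change from -0.19 to 0.172 at 12 h, -0.669 to 0.0991 at 24 h and -0.64 to 0.12 between 12 and 24 h), SPRY2 (-0.0526 to 0.71 at 12 h and -0.217 to 0.544 at 24 h), SPRED1 (-0.0738 to 0.304, -0.126 to 0.253 and -0.119 to 0.0412), SPRED2 (-0.0319 to 0.114 at 24 h) and ETV4 (-0.596 to 1.83, -0.486 to 1.93 and -0.42 to 0.587). None of these passed the test in any of these fits. In all, the leave-one-out fits gave 6, 7 and 6 reversals among 72 values in each comparison.

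The same-numbered 12 h and 24 h libraries deviated together weakly at most (correlations of 0.102, 0.0272 and 0.0292), so the numbers were not taken as pairs. Libraries of unlike number gave correlations of -0.0785 to 0.053, so the highest value was that of a same-numbered pair. No block was fitted with 0 h, where the labels (1 and 2) and the columns (1 and 3) share 1 number only. With the replicate block, 0 members and 4 of the other pathway genes passed between 12 and 24 h, and the log2 change of ETV4 turned to -0.0939. The depth limits DUSP6, ETV4 and IER3, whose counts reached at most 31 per library.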
